A study of Rattus norvegicus with 7 samples.

Results

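Microglia and macrophage genes were followed as a set of 32 genes named by symbol, all of which were found among the 32852 genes of the normalised count table, in all 7 libraries. The libraries come from wild-type rat oligodendrocyte progenitor cells, isolated from brain at postnatal day 7, plated at about 40000 cells per well and moved to differentiating medium at transfection. RNLTR12-int, a retroviral repeat carried in rat DNA, was the target of the siRNA in 3 samples (siRNLTR12-int), while 4 samples received a control siRNA, each transfected with Lipofectamine RNAiMAX and kept for 4 to 5 days. The design compares samples with and without the targeting siRNA. The level of RNLTR12-int was not analysed here, so the knockdown itself was not checked, and the labels name no strain, sex, animal or day for a sample. They call the libraries biological replicates without saying that these came from separate cultures, so p-values measure the spread between these libraries, which may in part be technical.

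Microglia are the resident macrophages of the brain. They enter the brain early in development, depend on the receptor CSF1R and its ligands CSF1 and IL-34, and take their identity from myeloid transcription factors such as PU.1, the product of Spi1. They survey tissue through purinergic and chemokine receptors, tag and engulf debris with the help of complement C1q and TREM2, and digest it in lysosomes. Progenitor cells isolated from postnatal brain are commonly accompanied by some microglia and astrocytes. Several of the 32 genes are not restricted to macrophages: Apoe is also made by astrocytes, Csf1 by glia and Il34 by neurons.

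Macrophage transcripts were present in every library, and their amount varied more between libraries of the same siRNA than between the siRNAs. A set's level in a library was taken as the average over its genes of log2(normalised count + 1). For 10 genes taken as a macrophage core (Aif1, Csf1r, Ptprc, Tyrobp, Fcer1g, Laptm5, Spi1, Itgb2, Cd53 and Ly86) the level was 10.43, 7.48 and 7.56 in siRNLTR12-int replicates 1 to 3, against 10.41, 8.66, 7.41 and 7.79 in control replicates 1 to 4. Summed over the core, this was 20386, 3179.9 and 3002 normalised counts in the siRNLTR12-int libraries and 19791, 5545, 2699 and 3073 in the control libraries. One library of each group, siRNLTR12-int replicate 1 and control replicate 1, was thus far above the rest, control replicate 2 stood between, and the groups overlapped. Over all 32 genes the level was 9.85, 7.23 and 7.15 in the siRNLTR12-int libraries and 9.89, 8.21, 7.003 and 7.33 in the control libraries. In bulk RNA, fewer macrophages and less RNA per macrophage cannot be told apart.

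Astrocyte markers were high in the libraries where macrophage transcripts were high. Recovered reads ranged from 22523873 to 61803693 per library. The 14 astrocyte markers had levels of 13.87, 12.23 and 12.20 in the siRNLTR12-int libraries and 13.74, 13.51, 12.20 and 12.18 in the control libraries, higher in siRNLTR12-int replicate 1 and control replicates 1 and 2 than in the other 4. Gfap, the astrocyte intermediate filament, had 306397, 19440.4 and 20478 normalised counts in the siRNLTR12-int libraries, against 262591, 224537, 27204 and 44392 in the control libraries. All 12 markers of the labelled oligodendrocyte lineage were detected in every library, at levels of 12.98, 13.50 and 13.40 in the siRNLTR12-int libraries and 13.42, 14.87, 14.18 and 14.46 in the control libraries. The neutrophil genes S100a8, S100a9 and Mpo reached at most 5.48 normalised counts and Elane was at 0 in all 7 libraries. Csf3r, on the same list, was not low, with 536, 534 and 533 normalised counts in the siRNLTR12-int libraries, against 602, 475, 593 and 472 in the control libraries. The T and B cell genes Cd3d, Cd3e, Cd79a and Ms4a1 reached at most 3.65, while the T cell gene Cd8a had 33.8, 3.8 and 8.06 normalised counts in the siRNLTR12-int libraries, against 54.5, 31.2, 15.5 and 8.87 in the control libraries, and Cd28 reached at most 18.3. The summed neutrophil and mast cell list ranged from 1009 to 1766 in siRNLTR12-int libraries and 1085 to 1788 in control libraries, and the lymphocyte list from 965 to 1036 in siRNLTR12-int libraries and 849 to 1185 in control libraries. Most of the lymphocyte sum was Ncr1, and most of the neutrophil and mast cell sum was Kit and Csf3r. Neuronal markers had levels of 7.60 to 8.47 in siRNLTR12-int libraries and 7.65 to 8.48 in control libraries, and vascular markers of 5.89 to 6.78 in siRNLTR12-int libraries and 5.86 to 6.60 in control libraries. The part of the astrocyte content in the results below was not tested.

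Gene by gene, the 32 genes followed the order of the macrophage levels closely. Those levels are averages over the same genes, so part of this closeness was given in advance. The highest library was siRNLTR12-int replicate 1 for 15 genes, control replicate 1 for 16, and control replicate 2 for Apoe. In 26 of 32 genes the 2 highest libraries were siRNLTR12-int replicate 1 and control replicate 1, as they were in 18.6% of all 18225 genes that averaged 10 or more normalised counts. The 6 exceptions were Cx3cr1, C1qb, C1qc, Apoe, Siglec10 and Il34. Over the 31 of the 32 genes that passed that minimum, the median ratio of the highest to the lowest library was 12.6, on values with 1 added, against 1.75 over all genes tested. Cd163 was the gene below the minimum.

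**Figure D1:**
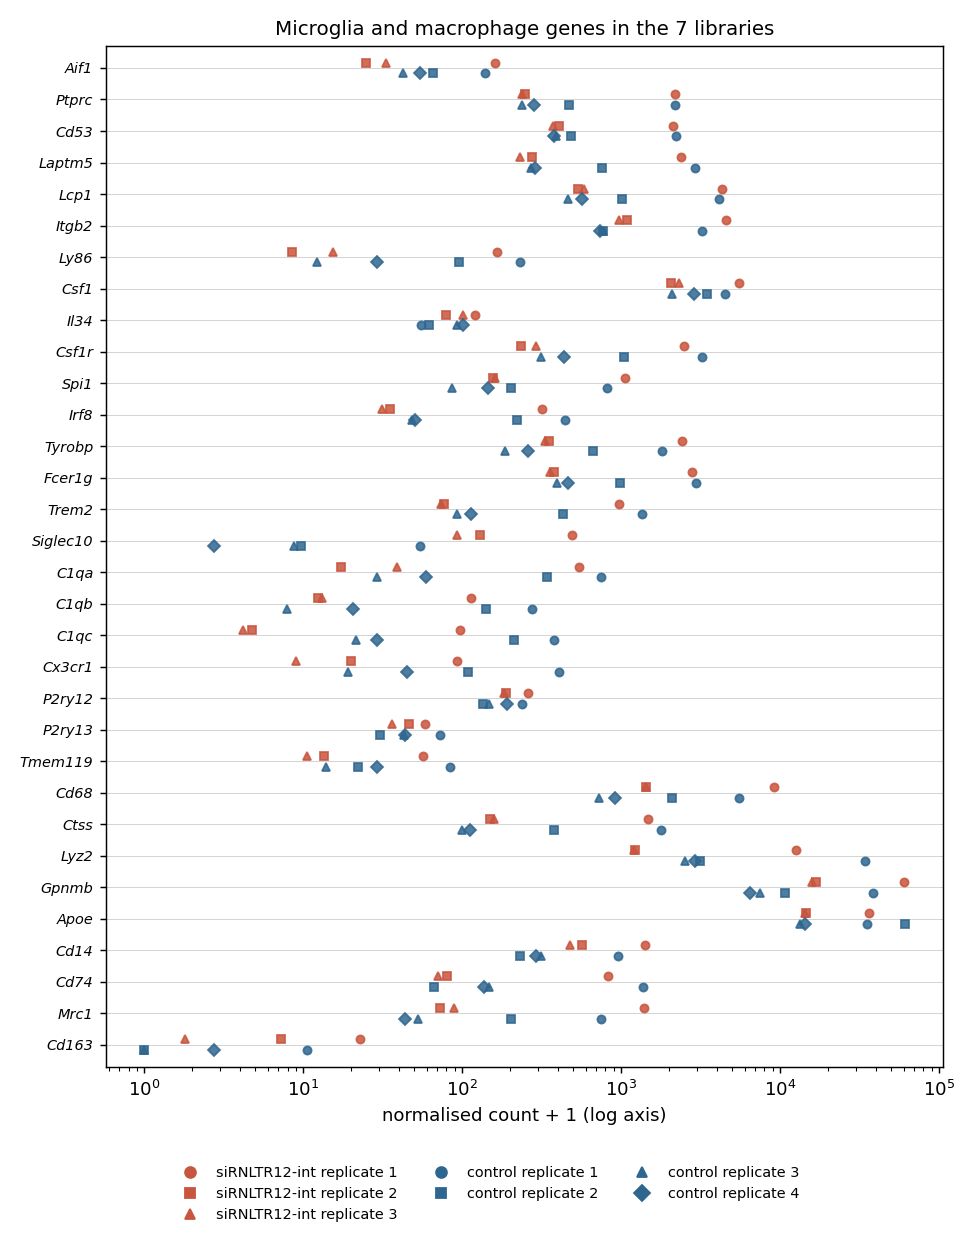
Normalised counts (with 1 added, log axis) of the 32 genes, 1 row per gene, ordered by role, with 1 point per library; siRNLTR12-int libraries are drawn above control libraries in each row. The circles, siRNLTR12-int replicate 1 and control replicate 1, lie to the right in most rows, and Siglec10 is the row in which all 3 siRNLTR12-int points lie to the right of all 4 control points.

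Between the siRNAs, 1 gene stood apart. Siglec10, which encodes a sialic acid-binding receptor of the immunoglobulin superfamily with inhibitory signalling motifs, was higher in each of the 3 siRNLTR12-int libraries than in any of the 4 control libraries. The other genes overlapped between the groups or, for Cd163, were too low to test. Differences were tested with limma on log2(normalised count + 1), siRNLTR12-int minus control, over all 18225 genes together, with Benjamini-Hochberg adjustment at 0.05. Limma called 0 of the 31 genes tested and 0% of all genes, with 1 of the 31 (Siglec10) at an unadjusted p under 0.05, against 6.3% of all genes in either direction and 3.33% as higher. EdgeR on the recovered reads also called 0 of the 31 and 0% of all genes, again with 1 of the 31 at an unadjusted p under 0.05, against 6.39%. The groups did not overlap in 1 of 31 genes, against 7.68% of all genes tested. The authors' deposited table gave an adjusted p for 27 of the 32 genes and called 1 of them, Siglec10, as higher, against 0.752% of all genes with one, and 0.384% as higher.

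The remaining differences went both ways. Log2 differences were negative in 17 of 31 genes, against 49% of all genes tested, and their median was -0.069, against 0.0057 over all genes. In 24 of the 31 the difference was smaller than its own standard error. Without siRNLTR12-int replicate 1, 26 of 31 differences were negative, and without control replicate 1, 10 were, as they were without siRNLTR12-int replicate 2. Leaving out 1 library thus moved the balance of directions in either sense. That library was not always rich in macrophage transcripts, since siRNLTR12-int replicate 2 was among the poorest.

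**Figure D2:**
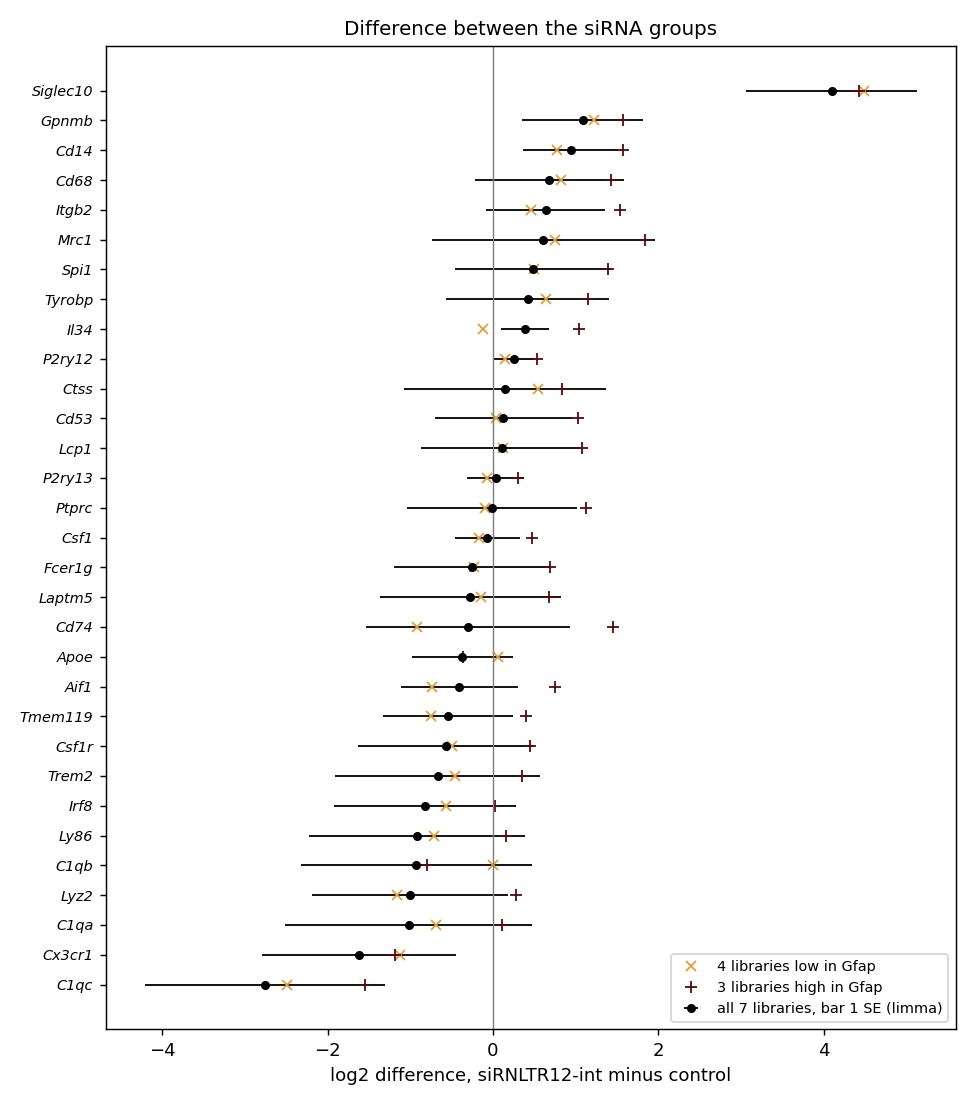
Log2 difference, siRNLTR12-int minus control, of the 31 genes tested: black points are the limma estimate over all 7 libraries with bars of 1 standard error, crosses are the difference within the 4 libraries low in Gfap, and plus signs that within the 3 libraries high in Gfap. Siglec10 lies near 4 by every estimate, while most other bars span 0.

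The receptor CSF1R and its ligands did not move alike. Csf1r, the receptor tyrosine kinase on which microglia depend, had 2502, 235 and 293 normalised counts in siRNLTR12-int replicates 1 to 3, against 3228, 1049, 315 and 436 in control replicates 1 to 4 (log2 -0.57, SE 1.06, limma adjusted p = 0.984). Its range covered a factor of 13.7 between control replicate 1 and siRNLTR12-int replicate 2. Csf1, the ligand that glia and other cells secrete, had 5496, 2072 and 2312 normalised counts in the siRNLTR12-int libraries, against 4548, 3458, 2096 and 2877 in the control libraries (log2 -0.069, SE 0.39, limma adjusted p = 0.997). It was highest in the same 2 libraries as Csf1r but over a factor of only 2.65, and the ratio of Csf1r to Csf1 counts within a library was 0.455, 0.114 and 0.127 in siRNLTR12-int libraries and 0.71, 0.303, 0.15 and 0.152 in control libraries. Il34, the other ligand of the receptor, had 119.7, 78.5 and 99.9 normalised counts in the siRNLTR12-int libraries, against 54.5, 61, 92.2 and 101 in the control libraries (log2 0.39, SE 0.29, limma adjusted p = 0.934). It was highest in siRNLTR12-int replicate 1 and lowest in control replicate 1, the 2 libraries richest in Csf1r.

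Both myeloid transcription factor genes were highest in siRNLTR12-int replicate 1 and control replicate 1. Spi1, which encodes PU.1, had 1067, 157 and 159.6 normalised counts in the siRNLTR12-int libraries, against 817, 202, 86.2 and 145 in the control libraries (log2 0.48, SE 0.94, limma adjusted p = 0.985). Irf8, a partner of PU.1 in microglia, had 318, 34.2 and 30.6 normalised counts in the siRNLTR12-int libraries, against 442, 222, 47.4 and 49.7 in the control libraries (log2 -0.82, SE 1.10, limma adjusted p = 0.981). Spi1 was highest in siRNLTR12-int replicate 1 and Irf8 in control replicate 1, and in both genes the groups overlapped. Since PU.1 is the shared regulator of many of these genes, promoter windows (250 bases before to 50 after the gene start) were searched for the core of its binding site, GAGGAA, on both strands (as TTCCTC on the other). RefSeq windows of rat build GRCr8 were at hand for 20 of the 32 genes. A match was found in 14 of the 20 (70.0%) and in 27.6% of all 33469 windows. The windows without a match were those of Apoe, C1qa, Cd163, Cx3cr1, Irf8 and P2ry13. A match is a run of letters, and no binding was measured. Windows of 4 genes are shown, 5′ to 3′, with matches in capitals: Csf1r as the receptor that defines the lineage, Trem2 and Lyz2 as genes high in the libraries rich in macrophage transcripts, and Siglec10 as the gene whose groups did not overlap.
Csf1r promoter, chr18:56834129-56834428, + strand: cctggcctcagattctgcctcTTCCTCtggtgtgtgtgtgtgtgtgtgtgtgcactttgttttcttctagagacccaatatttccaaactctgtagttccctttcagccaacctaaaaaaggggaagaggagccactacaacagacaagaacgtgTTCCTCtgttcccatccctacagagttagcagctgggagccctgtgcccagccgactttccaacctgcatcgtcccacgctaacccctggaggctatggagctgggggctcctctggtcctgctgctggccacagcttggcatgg
Trem2 promoter, chr9:20151730-20152029, - strand: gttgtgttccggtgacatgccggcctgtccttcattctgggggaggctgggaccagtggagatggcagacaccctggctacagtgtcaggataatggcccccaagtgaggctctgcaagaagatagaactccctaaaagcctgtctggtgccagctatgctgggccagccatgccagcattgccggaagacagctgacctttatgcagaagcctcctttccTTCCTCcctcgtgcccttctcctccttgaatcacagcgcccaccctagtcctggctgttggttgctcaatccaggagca
Lyz2 promoter, chr7:54797962-54798261, - strand: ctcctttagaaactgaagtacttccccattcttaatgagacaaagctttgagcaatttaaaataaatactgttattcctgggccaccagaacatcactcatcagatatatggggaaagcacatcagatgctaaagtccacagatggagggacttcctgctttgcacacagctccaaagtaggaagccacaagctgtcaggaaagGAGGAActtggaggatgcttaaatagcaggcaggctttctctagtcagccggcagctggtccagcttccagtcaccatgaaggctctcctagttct
Siglec10 promoter, chr1:102953668-102953967, + strand: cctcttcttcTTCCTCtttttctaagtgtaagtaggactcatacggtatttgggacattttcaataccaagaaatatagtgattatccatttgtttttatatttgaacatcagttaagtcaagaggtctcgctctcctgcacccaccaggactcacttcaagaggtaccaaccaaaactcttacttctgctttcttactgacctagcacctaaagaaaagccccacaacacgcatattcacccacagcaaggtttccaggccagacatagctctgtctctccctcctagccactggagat
The Csf1r window held 2 matches and the windows of Trem2, Lyz2 and Siglec10 held 1 each. C1qb, Cd14, Cd68 and Mrc1 also held 2.

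Among surface and cytoskeletal genes shared by macrophages, the pattern was nearly uniform. Ptprc, which encodes the leukocyte phosphatase CD45, had 2199.9, 249 and 236 normalised counts in the siRNLTR12-int libraries, against 2174, 467, 238 and 284 in the control libraries (log2 -0.016, SE 1.03, limma adjusted p = 0.999). The calcium-binding protein gene Aif1, the source of the IBA1 stain, had 159.9, 24.1 and 32.2 normalised counts in the siRNLTR12-int libraries, against 139.7, 64.6, 41.4 and 53.2 in the control libraries (log2 -0.41, SE 0.71, limma adjusted p = 0.984). In both, siRNLTR12-int replicate 1 and control replicate 1 were far above the other libraries of their groups. Itgb2, the beta subunit of leukocyte integrins, had 4568, 1096 and 974 normalised counts in the siRNLTR12-int libraries, against 3258, 766, 768 and 738 in the control libraries (log2 0.64, SE 0.72, limma adjusted p = 0.977), with siRNLTR12-int replicates 2 and 3 above control replicates 2 to 4. The lysosomal membrane protein gene Laptm5, the tetraspanin Cd53, the actin bundler Lcp1 and Ly86, a partner of the toll-like receptor homologue RP105, had log2 differences of -0.28, 0.13, 0.11 and -0.92, with limma adjusted p-values from 0.981 to 0.998. Ly86 rested on few reads in several libraries, with 6 and 18 reads in siRNLTR12-int replicates 2 and 3 and 13 and 16 in control replicates 3 and 4.

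Immune receptors of macrophages signal through activating adaptors, which carry ITAM motifs and recruit the kinase SYK, or, as Siglec10 does, through inhibitory motifs of their own. Siglec10 (ENSRNOG00000037339) had 493, 129 and 92.7 normalised counts in siRNLTR12-int replicates 1 to 3, against 53.6, 8.71, 7.76 and 1.77 in control replicates 1 to 4, from 540, 102 and 115 reads in siRNLTR12-int replicates 1 to 3 and 56, 12, 9 and 1 reads in control replicates 1 to 4. The lowest siRNLTR12-int library, replicate 3, was above the highest control library, replicate 1, although the core level was 7.56 in siRNLTR12-int replicate 3 and 10.41 in control replicate 1. Means were 238 ± 222 (SD, n = 3) in siRNLTR12-int libraries and 18 ± 23.9 (SD, n = 4) in control libraries. The limma log2 difference was 4.09 with a standard error of 1.03 (adjusted p = 0.661). In the authors' deposited table Siglec10 rose by 3.72 on the log2 scale (SE 0.97, adjusted p = 0.0248). DESeq2 on the recovered reads kept that direction without each library in turn, at log2 2.61 to 5.20, as the separation of the groups makes nearly certain. The call held only without control replicate 1 (DESeq2 adjusted p = 5.45e-08), and was lost without siRNLTR12-int replicates 1, 2 or 3 (0.156, 0.175 and 0.141) or control replicates 2, 3 or 4 (0.11, 0.085 and 0.0746, adjusted p-values of DESeq2).

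The other Siglec genes of macrophages did not share the separation. Of 8 family members tested beside Siglec10, 7 overlapped between the groups, and the other, Mag, a myelin protein gene of oligodendrocytes, had 4555, 2491 and 2069.6 normalised counts in the siRNLTR12-int libraries, against 11934, 67874, 10797 and 15670.0 in the control libraries. Siglec5, chosen like the others of the family after the values were seen, had 238, 63.3 and 45.1 normalised counts in the siRNLTR12-int libraries, against 106, 53.7, 19.8 and 31.9 in the control libraries (log2 0.99, limma adjusted p = 0.927). Cd33 had 553, 49.4 and 41.9 normalised counts in the siRNLTR12-int libraries, against 441, 118, 31 and 40.8 in the control libraries, highest in the same 2 libraries as most of the set. Reads of similar family members can be divided between genes by the counting, which limits the value of any 1 of them. Tyrobp, the adaptor DAP12, had 2438, 351 and 332 normalised counts in the siRNLTR12-int libraries, against 1826, 665, 184 and 259 in the control libraries (log2 0.42, SE 0.99, limma adjusted p = 0.99). Fcer1g, the common gamma chain of Fc receptors, had 2785, 376 and 355 normalised counts in the siRNLTR12-int libraries, against 2983, 991, 396 and 463 in the control libraries (log2 -0.25, SE 0.95, limma adjusted p = 0.994). The lipid receptor Trem2, which signals through DAP12, had 976, 76 and 72.5 normalised counts in the siRNLTR12-int libraries, against 1352, 430.3, 92.2 and 114 in the control libraries (log2 -0.67, SE 1.24, limma adjusted p = 0.984). The ratio of Tyrobp to Trem2 within a library was 2.5, 4.62 and 4.58 in siRNLTR12-int libraries and 1.35, 1.54, 2 and 2.28 in control libraries, so all 3 siRNLTR12-int values lay above all 4 control values. The groups were nearly in contact, at 2.5 and 2.28. The pair was picked by hand, and no share over other gene pairs was taken.

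The 3 chains of complement C1q, which assemble into 1 complex and tag material for engulfment, varied over wide ranges. C1qa had 543, 16.5 and 37.9 normalised counts in the siRNLTR12-int libraries, against 749, 339.6, 28.4 and 58.5 in the control libraries (log2 -1.02, SE 1.497, limma adjusted p = 0.981). C1qb had 112, 11.4 and 12.1 normalised counts in the siRNLTR12-int libraries, against 277, 140.1, 6.9 and 19.5 in the control libraries (log2 -0.93, SE 1.40, limma adjusted p = 0.982). C1qc had 95.9, 3.8 and 3.22 normalised counts in the siRNLTR12-int libraries, against 379, 212, 20.7 and 28.4 in the control libraries (log2 -2.76, SE 1.45, limma adjusted p = 0.858). For C1qa and C1qb the groups were interleaved. For C1qc, siRNLTR12-int replicates 2 and 3 were below every control library and siRNLTR12-int replicate 1 was below control replicates 1 and 2. The ratio of C1qa to C1qc within a library was 5.66, 4.33 and 11.7 in siRNLTR12-int libraries and 1.98, 1.6, 1.38 and 2.06 in control libraries, and the groups did not overlap in it. This pair too was picked by hand, without a share over other gene pairs. The C1qc values of siRNLTR12-int replicates 2 and 3 rest on 3 and 4 reads, so counting error alone is large there. SiRNLTR12-int replicate 1 had 105 C1qc reads, against 396 in control replicate 1.

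Genes known as markers of homeostatic microglia fell into 2 kinds. Cx3cr1, the fractalkine receptor, had 92.3, 19 and 8.06 normalised counts in the siRNLTR12-int libraries, against 409.5, 108, 18.1 and 44.4 in the control libraries (log2 -1.62, SE 1.17, limma adjusted p = 0.92), and Tmem119 had 55.7, 12.7 and 9.67 normalised counts in the siRNLTR12-int libraries, against 83.2, 21, 12.9 and 28.4 in the control libraries (log2 -0.55, SE 0.79, limma adjusted p = 0.981). Both were lowest in siRNLTR12-int replicate 3 and highest in control replicate 1. The ADP receptor gene P2ry12 had 259, 187 and 183 normalised counts in the siRNLTR12-int libraries, against 238, 135, 147 and 189.8 in the control libraries (log2 0.26, SE 0.25, limma adjusted p = 0.956), and its paralogue P2ry13 had 57.6, 45.6 and 35.5 normalised counts in the siRNLTR12-int libraries, against 71.8, 29.8, 42.2 and 42.6 in the control libraries (log2 0.032, SE 0.34, limma adjusted p = 0.998). These 2 varied by factors of 1.92 and 2.41, against 50.8 for Cx3cr1 and 8.61 for Tmem119. The ratio of P2ry12 to Cx3cr1 was 2.81, 9.87 and 22.7 in siRNLTR12-int libraries and 0.582, 1.25, 8.14 and 4.28 in control libraries, lowest in control replicate 1.

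Lysosomal genes differed among themselves. Cd68, a lysosomal glycoprotein gene used as a phagocyte marker, had 9134, 1444 and 1432 normalised counts in the siRNLTR12-int libraries, against 5493, 2083, 724 and 919 in the control libraries (log2 0.68, SE 0.90, limma adjusted p = 0.981). Gpnmb, a glycoprotein gene of lipid-laden macrophages that other glia and melanocytes also express, had 60317, 16830.1 and 15816 normalised counts in the siRNLTR12-int libraries, against 38466, 10740.3, 7526 and 6472 in the control libraries (log2 1.08, SE 0.73, limma adjusted p = 0.913). In both, siRNLTR12-int replicate 1 was the highest library and siRNLTR12-int replicates 2 and 3 were above control replicates 3 and 4, but control replicate 1 was above siRNLTR12-int replicates 2 and 3. Lyz2, the lysozyme of macrophages, had 12622, 1219 and 1217 normalised counts in the siRNLTR12-int libraries, against 34187, 3157, 2544 and 2913 in the control libraries (log2 -1.001, SE 1.18, limma adjusted p = 0.978). Here siRNLTR12-int replicates 2 and 3 were below every control library, and control replicate 1 was far above siRNLTR12-int replicate 1. The protease gene Ctss had 1473, 149 and 158 normalised counts in the siRNLTR12-int libraries, against 1796, 376, 99.1 and 112 in the control libraries (log2 0.15, SE 1.22, limma adjusted p = 0.998). It was highest in siRNLTR12-int replicate 1 and control replicate 1. Apoe, the lipid carrier shared with astrocytes, had 36157, 14538 and 14471 normalised counts in the siRNLTR12-int libraries, against 35324, 60957, 13399 and 14410.4 in the control libraries (log2 -0.37, SE 0.61, limma adjusted p = 0.984), and was highest in control replicate 2, 1 of the 3 libraries high in astrocyte markers.

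The receptor for bacterial lipopolysaccharide, Cd14, had 1409, 571 and 475 normalised counts in the siRNLTR12-int libraries, against 959, 231, 315 and 293 in the control libraries (log2 0.94, SE 0.57, limma adjusted p = 0.895), and control replicate 1 was the control library that lay above siRNLTR12-int replicates 2 and 3. Cd74, the invariant chain of MHC class II, had 826, 79.8 and 70.1 normalised counts in the siRNLTR12-int libraries, against 1377, 65.3, 147 and 137 in the control libraries (log2 -0.31, SE 1.23, limma adjusted p = 0.994), with control replicate 2 the lowest of the 7 libraries. Of the genes known from macrophages at the borders of the brain, the mannose receptor Mrc1 had 1405, 72.2 and 87.8 normalised counts in the siRNLTR12-int libraries, against 749, 204, 51.7 and 42.6 in the control libraries (log2 0.61, SE 1.35, limma adjusted p = 0.99). The haemoglobin scavenger receptor Cd163 had 24, 5 and 1 reads in the siRNLTR12-int libraries and 10, 0, 0 and 1 reads in the control libraries. Cd163 was thus close to the detection limit outside the 2 macrophage-rich libraries, and was not tested.

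Setting each gene against the macrophage core of its own library separated more genes. For each library, the core level was subtracted from the log2 value of the gene (for genes of the core, the level of the other 9). The siRNLTR12-int and control groups then did not overlap in 7 of the 31 genes, against 0.938% of all genes tested. Of the 7, 4 were higher, against 0.576%, and 3 lower, against 0.362%. Most of the genes behind these shares do not follow the macrophage level, and subtracting it adds its spread to them. The shares are thus not a like comparison for the 31 genes. Spi1, Tyrobp and Csf1r, among the 7, are core genes themselves, each set against the other 9. No test was made on these relative values. Higher relative to the core were Siglec10 (-1.48, -0.46 and -1.01 in the siRNLTR12-int libraries, against -4.64, -5.38, -4.28 and -6.32 in the control libraries), Cd68 (2.73, 3.02 and 2.92 in the siRNLTR12-int libraries, against 2.01, 2.37, 2.09 and 2.05 in the control libraries), Spi1 (-0.41, -0.20 and -0.26 in the siRNLTR12-int libraries, against -0.81, -1.10, -1.07 and -0.66 in the control libraries) and Tyrobp (0.92, 1.09 and 0.91 in the siRNLTR12-int libraries, against 0.47, 0.80, 0.14 and 0.26 in the control libraries). Lower were C1qc (-3.83, -5.22 and -5.48 in the siRNLTR12-int libraries, against -1.84, -0.93, -2.97 and -2.91 in the control libraries), Csf1r (0.96, 0.45 and 0.71 in the siRNLTR12-int libraries, against 1.39, 1.53, 0.99 and 1.09 in the control libraries) and Cx3cr1 (-3.89, -3.16 and -4.38 in the siRNLTR12-int libraries, against -1.73, -1.89, -3.16 and -2.29 in the control libraries). The groups were nearly in contact for Cx3cr1, Csf1r and Tyrobp. Lcp1 and Fcer1g were the genes that stayed closest to the core, within a range of 0.33 and 0.42 over the 7 libraries, whereas Il34, Csf1, P2ry12, P2ry13 and Apoe were lowest relative to the core in siRNLTR12-int replicate 1 or control replicate 1.

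**Figure D3:**
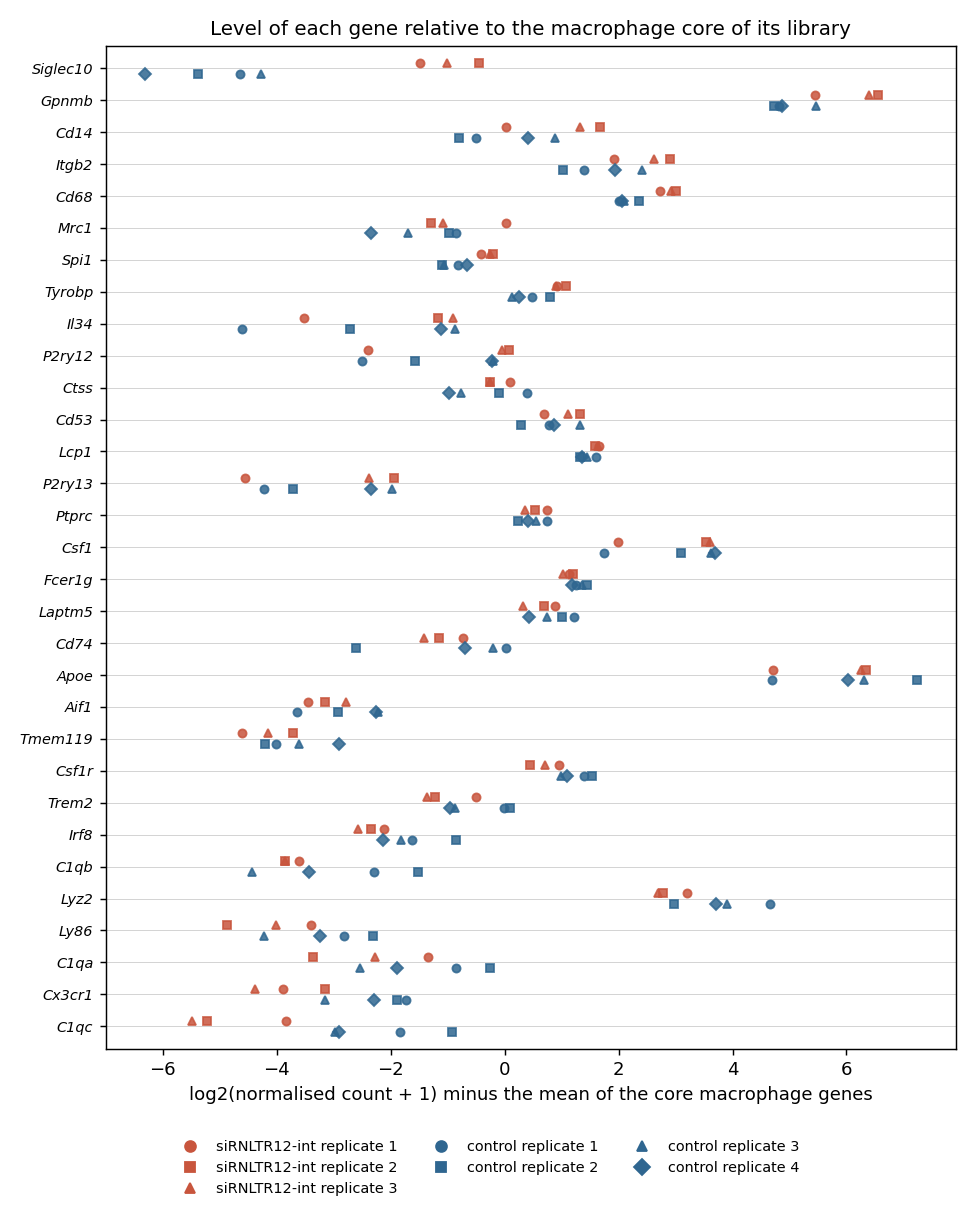
Log2(normalised count + 1) of the 31 genes tested minus the mean of the core macrophage genes in the same library, 1 row per gene ordered by the difference between group means, with siRNLTR12-int libraries above control libraries. Siglec10, Cd68, Spi1 and Tyrobp have all siRNLTR12-int points to the right of the control points, and C1qc, Csf1r and Cx3cr1 to the left.

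With the core level as a covariate in the limma fit over all genes, 0 of the 21 genes outside the core passed, against 0.011% of all genes. An unadjusted p under 0.05 was reached by 10 of the 21, against 16.3% of all genes. The covariate was the mean of 10 of the 32 genes, so it takes more spread from genes that follow them than from most others. The 16.3% is thus not a like comparison for the 21. Siglec10 then differed by 4.17 (SE 0.53, limma adjusted p = 0.148), Gpnmb by 1.14 (SE 0.18), Cd68 by 0.75 (SE 0.11) and C1qc by -2.64 (SE 0.45). Compared with the fit over all 7 libraries alone, the estimates moved little and the standard errors shrank.

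**Figure D4:**
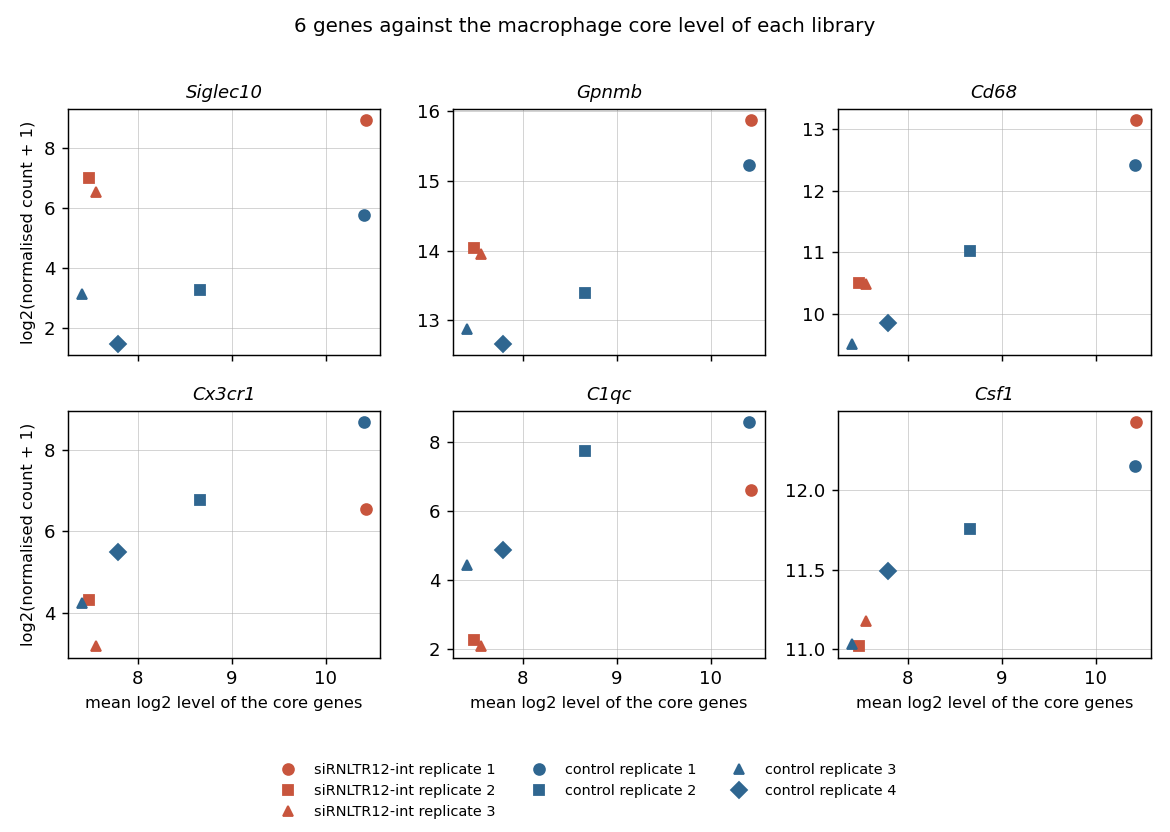
Log2(normalised count + 1) of 6 genes (vertical axes) against the mean log2 level of the core macrophage genes (horizontal axes), with 1 point per library. For Siglec10, Gpnmb and Cd68 the siRNLTR12-int points lie above control points of a similar core level, for Cx3cr1 and C1qc they lie level with or below them, and Csf1 is higher where the core is higher in both groups.

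The 4 libraries low in Gfap (siRNLTR12-int replicates 2 and 3, control replicates 3 and 4) had similar core levels, and within them more genes passed. Limma in these 4 libraries called 8 of the 31 genes, against 7.88% of all genes. Of these, 5 were higher, against 4.78% of all genes, and 3 lower, against 3.1%. Higher were Siglec10, 4.49 (adjusted p = 0.0107), Gpnmb, 1.23 (adjusted p = 0.00466), Cd68, 0.82 (adjusted p = 0.0152), Cd14, 0.78 (adjusted p = 0.0224), and Itgb2, 0.46 (adjusted p = 0.042), as log2 differences with limma. Lower were C1qc, -2.49 (adjusted p = 0.0402), Lyz2, -1.16 (adjusted p = 0.00466), and Cd74, -0.92 (adjusted p = 0.0395), by the same test. With 2 libraries a group the spread rests on few values, and siRNLTR12-int replicates 2 and 3 were the closest pair of all libraries (median chi-square per gene 1.29, where sampling noise alone would give a value below 1).

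The other 3 libraries (siRNLTR12-int replicate 1, control replicates 1 and 2) share no library with these 4 and allow no test, with a single siRNLTR12-int library. Siglec10 was higher there too, by a log2 difference of 4.42, a direction fixed in advance because its groups did not overlap. Also higher there were Gpnmb (1.57), Cd68 (1.43), Cd14 (1.58) and Itgb2 (1.53). The core level there was 10.43 in siRNLTR12-int replicate 1, against 10.41 and 8.66 in control replicates 1 and 2. Every core gene was higher there, such as Ptprc (1.12) and Cd53 (1.03). Against control replicate 1 alone, the log2 differences were 3.18 for Siglec10, 0.65 for Gpnmb, 0.73 for Cd68, 0.55 for Cd14 and 0.49 for Itgb2. C1qc was lower in the same 3 libraries, at a log2 difference of -1.55, whereas Lyz2 (0.28) and Cd74 (1.45) were higher. Against control replicate 1 alone, Lyz2 (-1.44) and Cd74 (-0.74) were lower, as was C1qc (-1.97). Cx3cr1 had a log2 difference of -1.18 in these 3 libraries and -1.13 in the 4. The sign was the same in both sets for 14 of the 31 genes, against 58.5% of all genes tested. Relative to the core it was the same for 23 of the 31 (10 higher and 13 lower), against 39%. The core consists of 10 of these genes, and its level was lower in control replicate 2 than in siRNLTR12-int replicate 1. Subtracting it therefore moves genes that do not follow it towards lower values in the 3 libraries. The fall from 58.5% to 39% over all genes comes in part from this. The 39% is thus not a like comparison for the 31 genes.

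Other genes linked to these cells, taken from 11 lists, gave no further call over all 7 libraries. These lists hold further microglia genes, genes of activated microglia, border macrophages, myeloid receptor signalling, the phagocyte oxidase, Fc and scavenger receptors, complement, MHC class II, toll-like receptors and inflammasomes, myeloid transcription factors and lipid transport. Outside the 32 genes, 149 of their genes were tested. Limma called 0 in either direction, the authors' deposited table called 0 of 130, and limma gave an unadjusted p under 0.05 to 5 with higher and 1 with lower values, against 6.3% of all genes in either direction and 3.33% as higher. Log2 differences were positive in 81 and negative in 68, with a median of 0.035. Over all genes tested, 9300 of 18225 were positive. By list, positive differences were found in 6 of 6 genes of the phagocyte oxidase, 6 of 8 genes of the border macrophage list, 14 of 19 genes of the activated microglia list, 9 of 14 genes of the toll-like receptor and inflammasome list, 10 of 19 genes of the receptor signalling list, 6 of 12 genes of the Fc and scavenger receptor list, 8 of 17 genes of the transcription factor list, 4 of 9 genes of the lipid transport list, 8 of 18 genes of the further microglia list, 5 of 12 genes of the MHC class II list and 7 of 18 genes of the complement list. The list medians ran from -0.15 for complement to 0.60 for the phagocyte oxidase. These counts and medians by list keep those of the 32 genes that a list also holds, such as Mrc1 among the border macrophage genes. The counts by list therefore do not add up to the 149.

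The groups did not overlap in 5 of these 149 genes, all higher in siRNLTR12-int libraries, against 4.09% of all genes in that direction. Il1b, the cytokine interleukin 1 beta, had 108, 91.1 and 75 normalised counts in the siRNLTR12-int libraries, against 67.9, 26.1, 28.4 and 30.2 in the control libraries (log2 1.34, limma adjusted p = 0.661). The tetraspanin Cd63, the transcription factor gene Mitf, the lipoprotein receptor Lrp1 and the complement regulator Cd46 differed by 0.31, 0.27, 0.34 and 0.41 (limma adjusted p from 0.712 to 0.883). These 4 are expressed by many cell types. In the 4 libraries low in Gfap, limma called 14 of 142 genes higher, against 4.78% of all genes, and 6 lower, against 3.1%. The higher ones include Spp1, a secreted phosphoprotein of activated macrophages (0.86), the fatty acid receptor Cd36 (1.26), the oxidase subunit Cybb (0.62) and the protease inhibitor Cst3 (0.69). Also higher was Adgrg1, an adhesion receptor gene of microglia and other neural cells (0.36). The lower ones include the protease gene Lgmn (-0.65), the cholesterol exporter Abca1 (-1.26), the fatty acid-binding protein gene Fabp5 (-0.57), the transcription factor gene Elf1 (-0.65) and Cfp, complement properdin (-0.58), as log2 differences. Over all 7 libraries Spp1 had 49640.4, 4729 and 4487 normalised counts in the siRNLTR12-int libraries, against 41744, 4194, 2591 and 2498 in the control libraries, highest in the 2 libraries richest in macrophage transcripts.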

How the data were processed

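Ribosomal RNA was removed from the RNA of 7 samples, whose integrity numbers were 9 to 10, and strand-specific libraries were sequenced in paired ends, per the labels' protocols. Salmon, DESeq2 and the build Rnor_6.0 are named without versions, per the submitters' processing notes. The authors deposited normalised counts, a signal per gene and library equal to the count divided by 1 size factor per library. Per the file headers, their comparison table gives for each gene a mean signal, a log2 fold change with its error, a test score, and p-values before and after adjustment; positive fold changes mean higher with siRNLTR12-int. Dividing each library's values by its smallest step gave whole reads for 100% of non-zero values (within 0.01 of a read), 22523873 to 61803693 per library. The sources used here do not say how reads of similar genes were divided.

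Limma 3.58.1, with its moderated variance following the mean, gave two-sided tests of log2(normalised count + 1) for the 18225 genes averaging 10 or more, in all 7 libraries, without covariates. Alternatives were pseudocounts of 0.25 and 8, no filter or a minimum of 50, TMM factors, each library left out, a replicate block, the 4 libraries low in Gfap, the core level as a covariate, and tests of the recovered reads with edgeR 4.0.16 and DESeq2 1.42.0. DESeq2 without each library was added after the data were seen. The fit was tested on simulated data. The members and lists were chosen with earlier results of these data known. All 32 members are named. Of the other lists, the rule allows the 2 genes with the highest mean and the 2 with the smallest limma p, of which those that stood apart or passed in the Gfap-low libraries are named. Promoter windows were picked for display among those at hand, after the values were seen. Protein sequences were not used here.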

Additional observations from a re-analysis of the deposited data

Results flagged for a closer look

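In 11 of the 32 genes control replicate 1 lay so far above the other 3 control libraries that its gap to the next one took a share of the group's range above Dixon's 95% critical value for 4 samples (a value which chance exceeds in about 1 in 20 groups). Its normalised counts, by gene, were Ptprc (2174), Ctss (1796), Spi1 (817), Cd14 (959), Lyz2 (34187), Cd74 (1377), Itgb2 (3258), Cd53 (2217), Gpnmb (38466), Siglec10 (53.6), Lcp1 (4159). All of these values belong to control replicate 1, the control library richest in macrophage transcripts. The shares were taken on normalised counts without a log, and no count over all genes was made beside them. Since the genes rise together in this library, the rate of 1 in 20 does not carry over to these 11 genes. In 4 of them, Ptprc, Lyz2, Lcp1 and Cd74, the authors' deposited table gives no p-value.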

How the results depend on the processing

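Siglec10 kept a positive difference under every alternative run (log2 3.26 to 4.88 over 17 settings, and DESeq2 2.61 to 5.20 with a library left out), with adjusted p-values over those 17 settings of limma, edgeR and DESeq2 from 0.0107 to 1. The positive sign of Siglec10 was nearly certain from its separated groups. Limma called 0 of all genes, 1415 in the 4 libraries low in Gfap, 2 with the core level as a covariate, and 0 to 2 with a library left out. DESeq2 called 141, and 9 to 552 with a library left out, the highest without control replicate 1. Among the 32 genes DESeq2 then called Siglec10, Cd14 and Gpnmb without control replicate 1, and Cx3cr1 and C1qc without siRNLTR12-int replicate 1. The median difference of the 32 genes ranged from -0.94 to 0.35 and the number of negative differences from 10 to 26 with a library left out. Same-numbered replicates, with values centred on their group, correlated at 0.75, -0.19 and 0.63. Since the libraries also split by Gfap, this does not settle whether the numbers pair them, and the labels do not say. With the replicate block limma called 0 genes, the median was -0.31 with 20 negative, and the sign turned for Ctss -0.31, Cd53 -0.12 and Lcp1 -0.17. The sign also turned with edgeR for Ptprc 0.17, P2ry13 -0.017, Ctss -0.021 and Csf1 0.018, with DESeq2 for Ptprc 0.18, P2ry13 -0.012, Ctss -0.0058 and Csf1 0.021, and in the libraries low in Gfap for C1qb 0.0011, P2ry13 -0.075, Apoe 0.062 and Il34 -0.12. Other pseudocounts, filters and TMM turned no sign. With a library left out the log2 difference spanned 0 for 18 genes: Aif1 -1.23 to 0.11, Csf1r -1.65 to 0.087, Ptprc -1.07 to 0.68, Tyrobp -0.52 to 1.05, Fcer1g -1.23 to 0.35, Trem2 -1.90 to 0.088, P2ry13 -0.15 to 0.26, Cd68 -0.21 to 1.26, Ctss -0.94 to 1.02, Laptm5 -1.36 to 0.45, Spi1 -0.43 to 1.13, Apoe -0.81 to 0.052, Cd74 -1.46 to 0.60, Itgb2 -0.078 to 1.16, Cd53 -0.68 to 0.73, Mrc1 -0.77 to 1.43, Lcp1 -0.87 to 0.78, Csf1 -0.51 to 0.19. None of these was called in the limma fit over all 7 libraries, and the cause was not tested. Depth limits Cd163, Tmem119, C1qb, C1qc, Ly86 and Cx3cr1 in particular, each with under 30 reads in at least 4 libraries.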
